A study of Mus musculus with 2 samples.

Results

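The 9 genes described here serve alcohol oxidation and the retinoic acid pathway. They are the alcohol dehydrogenases *Adh7* and *Adh1*, the retinal dehydrogenases *Aldh1a1*, *Aldh1a2* and *Aldh1a3*, the aldehyde dehydrogenase *Aldh3a1*, the retinoic acid binding proteins *Crabp1* and *Crabp2*, and the retinoic acid receptor *Rarg*. They were picked by name, and the group was chosen by the measured level of *Adh7*, which was among the most abundant genes that were higher in the circumvallate papillae. Of the 9 genes, 8 had a row in the table of 18498 rows. *Aldh1a2* had no row with that symbol, so its level is not analysed here, and it enters only the promoter search. The comparison of the 2 tissues was itself used in the choice, so the values below are a description.

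Poly(A) RNA was sequenced from 2 tissues of the mouse tongue, the circumvallate papillae (CvP) at the back of the tongue, which hold many taste buds, and the surrounding epithelium without papillae (Epi). Both came from male, unmodified C57BL/6J mice, aged 12 to 30 weeks, and RNA of 20 or more mice was pooled for each tissue. RNA was that of the tissue and not of sorted cells, which limits the CvP library as a sample of taste cells. With 1 library per tissue there was no replicate, so no test between the tissues could be made, and intervals given here cover counting error only.

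Retinol, which is vitamin A, enters cells with the help of carrier and receptor proteins and is oxidised first to retinal and then to retinoic acid. Alcohol and retinol dehydrogenases carry out the reversible first step and retinal dehydrogenases of the ALDH1A group the irreversible second. Retinoic acid binds RAR receptors, which sit on DNA with RXR partners, and enzymes of the CYP26 group break it down. In stratified epithelia retinoic acid is known to restrain keratinization.

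Levels are given as RPKM, the reads of a gene per kilobase of its listed length, scaled to the mapped reads of the library. The smallest steps of RPKM showed 28394990 mapped reads in the CvP library and 27936127 in the Epi library. Read numbers of genes given below were estimated with the annotated transcript length where this was shorter than the listed one. They are then lower than the reads that RPKM per listed length implies. Over the 10363 rows with an RPKM of at least 1 in both libraries the median CvP/Epi ratio was 1.31 (log2 0.39), against which single ratios can be read. All 10 taste cell markers were higher in the CvP, led by *Gnat3* (127 and 0.03) and *Krt8* (113 and 0.36), and together they reached 513 in the CvP against 6.18 in the Epi. *Pkd2l1* and *Kcnq1* were at 0 in the Epi. The 9 keratinised epithelium markers summed to 34823 in the CvP against 91664 in the Epi, led by *Krt13* (17549 and 47815) and *Krt4*, and 5 of them were called higher in the Epi. On the same list *Trp63* (62.3 and 33.6) had a ratio of 1.85, and *Krt5* (1506 and 1271) one of 1.19 that came to 0.903 divided by the median ratio.

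A gene was called higher in the CvP when its CvP RPKM was above 10 and its CvP/Epi ratio above 3, the criteria of the study. They were met by 435 of the deposited rows. With a minimum RPKM of 3 in place of 10, 1120 rows were called, among them *Rarb* and *Scarb1*. The count that the paper reports for its stated criteria is the one obtained here at the lower minimum. Why the stated minimum did not give that count was not tested. With the minimum of 10, the calls took in 3 of the 8 genes with a row as higher in the CvP, namely *Adh7*, *Aldh1a1* and *Aldh1a3*, where 2.35% of all rows were. No member met the opposite criteria, which 0.600% of all rows did. The other 5 were *Aldh3a1*, *Crabp2*, *Rarg* and *Adh1*, with ratios from 0.930 to 1.04, and *Crabp1*, with a ratio of 0.526. The median log2 ratio of the 8 genes was 0.03, against 0.50 over the 12549 rows with at least 1 RPKM in either library.

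**Figure D1:**
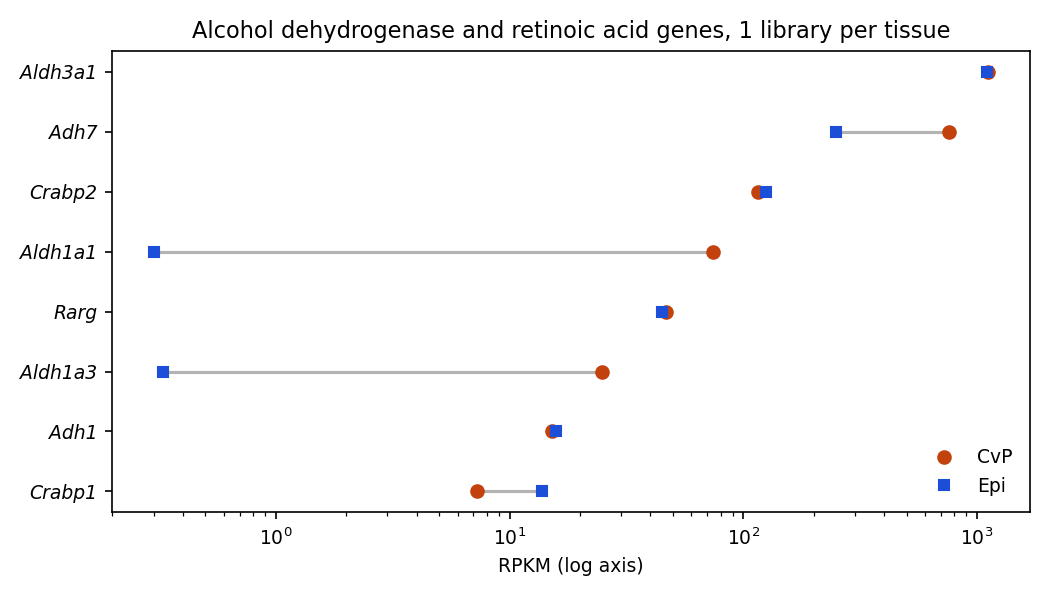
RPKM (log axis) of the 8 members with a row in the CvP (circles) and the Epi (squares), 1 library each, ordered by CvP level. *Aldh1a1* and *Aldh1a3* lie at 74.2 and 24.8 in the CvP but at 0.30 and 0.33 in the Epi, *Adh7* at 757 and 249, while *Aldh3a1*, *Crabp2*, *Rarg* and *Adh1* lie at nearly the same level in both.

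*Adh7* codes for the class IV alcohol dehydrogenase, an enzyme of the upper digestive tract lining that oxidises ethanol and retinol. Its RPKM was 757 in the CvP against 249 in the Epi, about 72441 and 23444 reads. The CvP library was the higher, with a ratio of 3.04 (95% exact interval 2.996 to 3.085), so the criterion of 3 lies inside the interval. These reads rest on the shorter, annotated length. With reads estimated from the listed length the interval was 3.008 to 3.073, just above 3. Divided by the median ratio of all rows the ratio was 2.32, and *Adh7* was then no longer called. *Adh7* was number 43 by RPKM of all rows in the CvP, number 181 in the Epi and number 9 by CvP RPKM among the 435 called rows. Of the rows with a CvP RPKM above 100, the next above it by ratio were *Cyp2f2* (3.06) and *Ctsl* (3.19), and the next below were *Ftl1* (2.75) and *H2-K1* (2.68), which were not called.

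The promoter of *Adh7* is shown because the level of this gene was the reason for the choice of the group. RefSeq (GRCm38.p6) places the 250 bases before its start at chr3:138217523-138217772 on the plus strand. They were found once in NCBI37/mm9, the build of the deposited table, with the start at 137880737, where the row of the gene also starts. The capitals used below for retinoic acid receptor motifs do not occur here.
*Adh7*: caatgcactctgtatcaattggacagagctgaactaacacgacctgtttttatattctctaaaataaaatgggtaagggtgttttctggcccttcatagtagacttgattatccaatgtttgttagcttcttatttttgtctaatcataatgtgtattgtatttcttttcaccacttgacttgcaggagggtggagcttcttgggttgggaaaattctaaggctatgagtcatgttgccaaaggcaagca

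The genes with a pattern closest to that of *Adh7*, by distance in the plane of log2 RPKM over the 2 libraries, were *Cyp2f2*, *Cd9*, *S100a11*, *Anxa2* and *Ecm1*. Their distances ran from 0.42 for *Cyp2f2* to 0.69 for *Ecm1*, on the log2 scale. *Cyp2f2*, a cytochrome P450 of airway lining cells, had an RPKM of 935 in the CvP against 305 in the Epi, a ratio of 3.06 (3.01 to 3.12) that overlaps the interval of *Adh7*. The other 4 had ratios from 1.83 to 2.31. With 2 libraries this nearness is a matter of level and ratio alone.

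**Figure D2:**
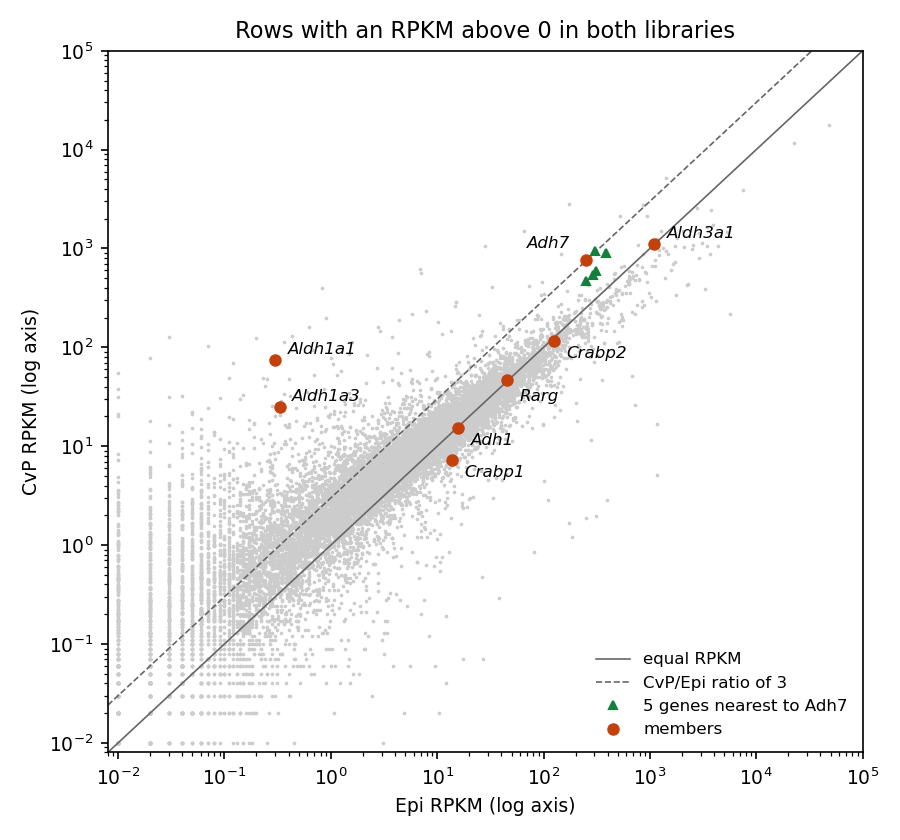
CvP RPKM against Epi RPKM (log axes) for all rows above 0 in both libraries (grey), the members (circles) and the 5 genes nearest to *Adh7* (triangles), with lines of equal RPKM and of a ratio of 3. *Adh7* lies on the line of 3 at high level, *Aldh1a1* and *Aldh1a3* far above it, and the other 5 members near or below the line of equal RPKM.

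*Adh7* lies on NCBI37/mm9 chromosome 3 in a cluster of alcohol dehydrogenase genes on the plus strand. The members *Adh7* (137880737 to 137895006) and *Adh1* (137940609 to 137953655) are neighbours, 45.6 kb apart, and *Adh6a* and *Adh5* follow within 238 kb of the start of *Adh7*. *Adh1*, the class I enzyme best known from liver, had an RPKM of 15.2 in the CvP against 15.7 in the Epi, a ratio of 0.967 (0.861 to 1.09). The interval includes 1, but the ratio of *Adh1* depended on the scaling. It was 0.737 divided by the median ratio and 1.17 rescaled to a common sum, both outside the interval. In the GENCODE M1 annotation 136 exon bases of *Adh1* overlap the antisense gene *Gm16559*, and since the counting was not stated to use strand, its reads could have been counted on *Adh1*. *Adh5*, the class III enzyme that clears formaldehyde and is active in most cells, was at 24.5 and 13.1, a ratio of 1.87 (1.69 to 2.07). *Adh6a* was at 2.89 and 3.34, with an interval of its ratio from 0.664 to 1.13. *Adhfe1*, an iron-dependent alcohol dehydrogenase on chromosome 1, was below 1 in both libraries (0.71 and 0.46). Of the 5 Adh family rows, 1 was called higher in the CvP (20%, where 2.35% of all rows were). It is the row of *Adh7*, whose level was the reason for the choice of the group. No window of 75 bases, the length of a read, in the transcripts of *Adh7* and *Adh1* matched the other gene within 2 mismatches.

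*Aldh1a1* and *Aldh1a3* code for enzymes that turn retinal into retinoic acid, and they had the largest ratios of the members. *Aldh1a1* (chromosome 19, 20676472 to 20717952, plus strand) was at 74.2 in the CvP against 0.30 in the Epi, about 4323 and 17 reads. Its level was thus high in the CvP library and close to nothing in the Epi library, with a ratio of 247 (156 to 430). *Aldh1a3* (chromosome 7, 73535779 to 73572363, minus strand) was at 24.8 in the CvP against 0.33 in the Epi, about 2426 and 32 reads. Its ratio was 75.2 (52.7 to 109), lower than that of *Aldh1a1*, and the intervals of the pair did not overlap. These reads and intervals rest on the shorter, annotated length. With reads estimated from the listed length the intervals were 171 to 363 for *Aldh1a1* and 56.7 to 102 for *Aldh1a3*. In the Epi their levels could not be told apart, with exact Poisson intervals of 0.175 to 0.480 RPKM for *Aldh1a1* and 0.226 to 0.466 for *Aldh1a3*. By log2 ratio with a pseudocount of 0.1, *Aldh1a1* lay above 99.8% and *Aldh1a3* above 99.2% of the 12549 rows with at least 1 RPKM in either library. Divided by the median ratio they were 188 and 57.3, and with a pseudocount of 1 they were 57.8 and 19.4.

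Of the 2 starts that RefSeq (GRCm38.p6) lists for *Aldh1a1*, the 250 bases before the one nearest to the deposited row, at chr19:20601718-20601967, plus strand, are printed because this gene had the highest ratio of the members. They match NCBI37/mm9 once, with the start at 20676458, close to the row start at 20676472. No base is in capitals, since none of the motifs searched below was found.
*Aldh1a1*: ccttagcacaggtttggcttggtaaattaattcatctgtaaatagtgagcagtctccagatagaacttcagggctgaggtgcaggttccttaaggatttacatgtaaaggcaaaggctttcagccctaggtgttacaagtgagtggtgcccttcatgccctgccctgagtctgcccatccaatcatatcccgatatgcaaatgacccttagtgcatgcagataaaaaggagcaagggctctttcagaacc

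*Aldh1a7*, a close relative of *Aldh1a1* that lies 49.5 kb from it on the opposite strand, was at 15.5 in the CvP against 1.06 in the Epi, a ratio of 14.7 (11.3 to 19.3). Of the 1992 windows of 75 bases in its transcript, 16.9% match *Aldh1a1* within 2 mismatches and 2.51% match exactly. A part of the reads of either gene is therefore uncertain. In the CvP *Aldh1a1* had about 4323 reads against about 909 of *Aldh1a7*, so misplaced reads would weigh more on *Aldh1a7*. How far the level, ratio and call of *Aldh1a7* rest on reads of *Aldh1a1* was not tested. Each count of called genes that includes *Aldh1a7* has this limit. No window of *Aldh1a1* came within 2 mismatches of *Aldh1a3*. *Aldh8a1*, which acts on a retinal isomer, had at most 3 reads in either library, so it is given no fold. The 3 genes listed for the retinal to retinoic acid step with an RPKM of at least 1 were all called higher in the CvP. That is 75% of the 4 with a row, where 2.35% of all rows were. Of these 3, *Aldh1a1* and *Aldh1a3* are members picked with this comparison known. With *Aldh8a1* the 3 genes summed to an RPKM of 115 in the CvP against 1.74 in the Epi. *Aldh1a7* was placed in this step by the list alone, and whether it acts on retinal was not tested.

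*Aldh3a1* oxidises aromatic and fatty aldehydes and is known as an abundant protein of the mouse cornea. It was the highest member in both libraries, at 1116 in the CvP against 1102 in the Epi, where it was number 21 and number 43 of all rows. The ratio was 1.01, with an interval just above 1 (1.001 to 1.025) that is narrow because of the high counts. Divided by the median ratio it was 0.772, and rescaled to a common sum 1.22, so the side of 1 depended on the scaling. Its neighbour *Aldh3a2* (chromosome 11, 61058257 to 61080629), an enzyme of fatty aldehyde breakdown, lies 26.3 kb away on the opposite strand. *Aldh3a2* was at 24.2 and 5.22, a ratio of 4.63 (4.18 to 5.13), and was called higher in the CvP. No window of *Aldh3a1* matched *Aldh3a2* within 2 mismatches. On chromosome 19, *Aldh3b1* was at 2.68 and 0.08, about 139 and 4 reads, a ratio of 33.5 (13.1 to 127), while *Aldh3b2* was at 83.1 and 114, a ratio of 0.729 (0.703 to 0.756).

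Across the Aldh family 19 of the 20 listed genes had a row, and 17 had at least 1 RPKM in either library. Those called higher in the CvP were 4, *Aldh1a1*, *Aldh1a3*, *Aldh1a7* and *Aldh3a2* (21.1% of the 19 rows, where 2.35% of all rows were), and 0 were called higher in the Epi. Of these 4, *Aldh1a1* and *Aldh1a3* are members picked with this comparison known. The median log2 ratio of the 17 was 0.61, against 0.50 over all such rows. *Aldh3a1* alone held an RPKM of 1116 of the family sum of 1448 in the CvP and 1102 of 1305 in the Epi.

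**Figure D3:**
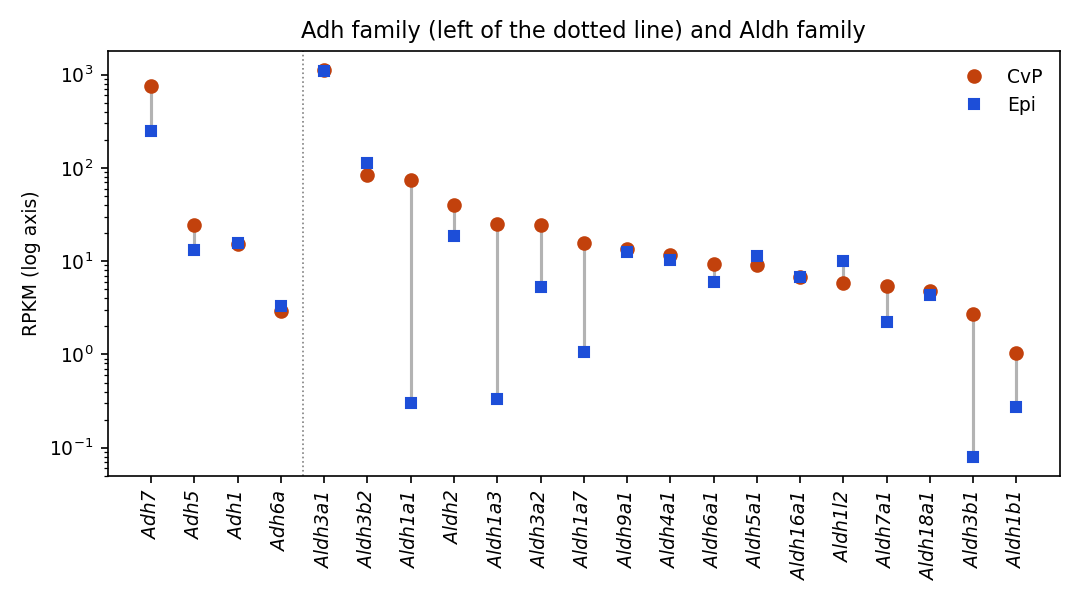
RPKM (log axis) of the Adh and Aldh family genes with at least 1 RPKM in either library, CvP as circles and Epi as squares. *Adh7* and *Aldh3a1* stand above 200 in both libraries, and the longest gaps between the tissues are those of *Aldh1a1*, *Aldh1a3*, *Aldh1a7* and *Aldh3b1*.

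*Crabp1* and *Crabp2* bind retinoic acid in the cytoplasm. *Crabp2*, which carries it to receptors in the nucleus, was at 116 in the CvP against 125 in the Epi, a ratio of 0.930 (0.885 to 0.977). *Crabp1*, which is linked to its breakdown, was at 7.28 in the CvP against 13.8 in the Epi, about 153 and 286 reads. Its ratio was 0.526 (0.430 to 0.643), the lowest of the members, and lay above 4.14% of the rows with at least 1 RPKM in either library. In both libraries *Crabp2* was thus the more abundant of the pair per listed length. *Fabp5*, a fatty acid binding protein that can also carry retinoic acid, was far more abundant, at 1075 in the CvP against 2533 in the Epi, a ratio of 0.424 (0.419 to 0.430). All 3 retinoic acid binding genes had a ratio below 1 as deposited, but *Crabp2* came to 1.12 when both libraries were rescaled to a common sum. No window of the *Crabp1* and *Crabp2* transcripts matched the other within 2 mismatches.

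*Rarg* codes for retinoic acid receptor gamma, the RAR form known as the main one of epidermis. Its RPKM was 46.5 in the CvP against 44.9 in the Epi, with a ratio of 1.04 (0.990 to 1.08) whose interval includes 1. With reads estimated from the listed length the interval was 1.015 to 1.057. The ratio was 0.789 divided by the median ratio and 1.25 rescaled to a common sum. *Rarg* was the most abundant of the RAR and RXR genes per listed length in both libraries. Its partners *Rxra* (25.6 and 26.7) and *Rxrb* (11.0 and 10.1) were also close in the tissues, as was *Ppard* (22.1 and 22.5), a fatty acid receptor that retinoic acid can reach through *Fabp5*. *Rara* was at 3.09 and 1.37, a ratio of 2.26 (1.82 to 2.78). *Rarb*, itself a known target of retinoic acid, was at 6.03 in the CvP against 0.28 in the Epi, about 519 and 24 reads, a ratio of 21.5 (14.1 to 33.5). *Rxrg* had at most 3 reads in either library. None of the 7 receptor genes was called, since *Rarb* stays below an RPKM of 10. Of all rows, 2.35% met the CvP criteria, so a list of 7 can hold none at that share.

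Upstream of the members, retinol handling showed a mixed picture. *Stra6*, the receptor that takes up retinol from its blood carrier, was at 3.25 and 1.14, and *Scarb1*, a lipoprotein receptor that also takes up carotenoids, at 5.34 and 0.89. In contrast *Rbp2*, a retinol binding protein known from gut, was at 134 and 164, and *Rbp7* at 9.97 and 17.2. *Dgat1*, which can store retinol as esters, was at 7.62 and 3.84. None of the 13 rows of retinol uptake, binding and storage was called, where 2.35% of all rows met the CvP criteria. So short a list can hold none at that share. *Rdh10*, a retinol dehydrogenase needed in the embryo, was at 13.6 and 5.84, a ratio of 2.34 (2.12 to 2.58). *Rdh12*, a retinal reductase best known from photoreceptors, was at 69.8 and 86.5, *Dhrs9*, a retinol dehydrogenase of epithelia, at 37.4 and 33.2, and *Dhrs3*, which reduces retinal back to retinol, at 29.0 and 29.2. *Rdh9* was at 1.32 and 0.01, the latter about 1 read, which gives 132 for the ratio and a wide interval of 17.4 to 3963. Of the 18 oxidoreductase rows, 1 was called (5.56%, where 2.35% of all rows were higher in the CvP), that of *Adh7*, by which the group was chosen.

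**Figure D4:**
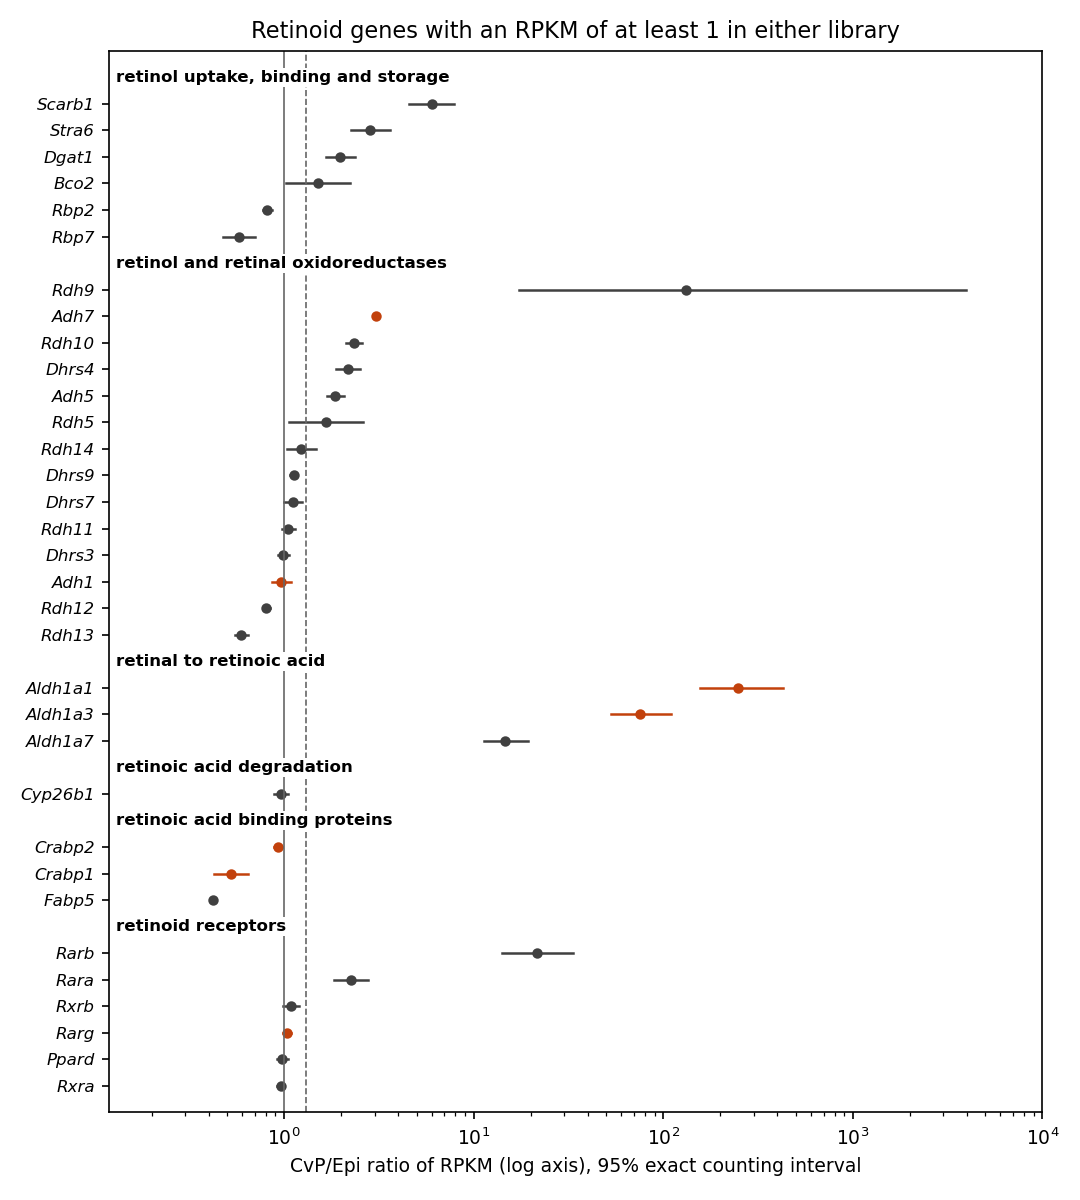
CvP/Epi ratio of RPKM (log axis) with 95% exact counting intervals for retinoid genes with at least 1 RPKM in either library, by role, members in colour. The full vertical line marks a ratio of 1 and the dashed line the median ratio of all rows, 1.31. The genes listed for the retinal to retinoic acid step, *Rdh9* and *Rarb* lie far to the right, the binding proteins to the left of 1.

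Genes known to respond to retinoic acid had ratios on both sides of 1. Of 15 listed, 11 had at least 1 RPKM in either library, and none was called in either direction. Of all rows, 2.35% met the CvP criteria and 0.600% the opposite ones. At such shares a list of 15 can hold no called row without differing from all rows. The median log2 ratio of the 11 was 0.52, against 0.50 over all such rows. *Rarb* (ratio 21.5) and *Tgm2*, a protein crosslinking enzyme (2.53 and 0.13, ratio 19.5, interval 11.1 to 36.7), stood high. *Crabp2* (0.930) and *Dhrs3* (0.992), which are on the same list, did not, and *Rarres1* was lower in the CvP, at 5.34 and 13.3 (ratio 0.401, interval 0.339 to 0.474). The breakdown enzymes lay below an RPKM of 10 in both libraries. *Cyp26b1* was at 8.03 and 8.36. *Cyp26a1* was at 0.31 and 0, about 16 reads against none, and the exact interval of its ratio ran from 3.79 upwards. *Cyp26c1* was at or below 3 reads in both.

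Receptors of the RAR group are known to bind direct repeats of a hexamer, and a script searched for these in the RefSeq promoters, which run from 250 bases before to 50 after a gene start. The hexamers were AGGTCA or AGTTCA or GGTTCA or GGGTCA, in any of the 16 ordered pairs on either strand, spaced by 1, 2 or 5 bases. Repeats spaced by 5 bases were present in 0.0974% of all 32851 promoters, those spaced by 2 in 0.268% and those spaced by 1 in 0.222%. Of the 9 members 6 matched an entry, and none of their 8 promoters held any of these repeats. *Aldh1a3*, *Aldh3a1* and *Crabp2* had no entry. Of the 88 genes of the members and lists together 64 matched, and 2 of them, *Rarb* and *Cyp26a1*, held a repeat spaced by 5. Both are shown with the repeat in capitals, as the only promoters of these 64 genes that held one. The *Rarb* bases are chr14:16575477-16575726 on the minus strand and the *Cyp26a1* bases chr19:37697558-37697807 on the plus strand of GRCm38.p6. The repeat spans bases -53 to -37 from the start in *Rarb* and -32 to -16, on the opposite strand, in *Cyp26a1*. A match is a description of the letters and not of binding.
*Rarb*: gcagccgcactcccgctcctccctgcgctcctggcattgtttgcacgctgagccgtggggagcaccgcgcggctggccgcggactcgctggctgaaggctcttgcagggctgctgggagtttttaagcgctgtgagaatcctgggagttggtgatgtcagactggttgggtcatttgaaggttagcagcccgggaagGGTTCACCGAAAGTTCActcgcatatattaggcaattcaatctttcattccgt
*Cyp26a1*: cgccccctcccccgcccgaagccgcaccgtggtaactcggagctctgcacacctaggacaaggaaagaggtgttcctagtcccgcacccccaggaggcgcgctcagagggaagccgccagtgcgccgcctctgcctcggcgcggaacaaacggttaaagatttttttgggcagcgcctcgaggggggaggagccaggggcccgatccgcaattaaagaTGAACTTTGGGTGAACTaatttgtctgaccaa

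Over all listed retinoid, Adh and Aldh genes other than the members, 74 of 79 had a row and 55 had at least 1 RPKM in either library. Of the 74, 2 were called higher in the CvP (2.70%, against 2.35% of all rows), *Aldh1a7* and *Aldh3a2*, and 0 in the Epi. Their median log2 ratio was 0.33, below the 0.50 of all rows. Among 11 corepressor and coactivator genes none was called, and at the 2.35% of all rows so short a list can hold none. Of these genes, *Hdac3*, *Tbl1x*, *Ncor1*, *Ep300*, *Nrip1* and *Tbl1xr1* had ratios from 1.19 to 1.60. On the same list *Ncoa2* had a ratio of 0.820 (0.777 to 0.864), *Ncoa1* of 0.950 and *Ncoa3* of 0.970. The annotation in the deposited table puts 45 rows in the KEGG retinol metabolism pathway, among them *Adh7* and *Adh1*. Of the other 43 rows, 3 were called higher in the CvP (6.98%), *Aldh1a7* and the cytochrome P450 genes *Cyp3a13* (78.5 and 22.3) and *Cyp2b10* (26.7 and 4.88), and 0 in the Epi.

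Ordered by RPKM, the members in the CvP were *Aldh3a1*, *Adh7*, *Crabp2*, *Aldh1a1*, *Rarg*, *Aldh1a3*, *Adh1* and *Crabp1*, with no overlap between the exact Poisson intervals of neighbours. In the Epi it was *Aldh3a1*, *Adh7*, *Crabp2*, *Rarg*, *Adh1*, *Crabp1*, *Aldh1a3* and *Aldh1a1*. There *Adh1* (14.5 to 17.1) overlapped *Crabp1* (12.3 to 15.5), and *Aldh1a3* overlapped *Aldh1a1*. These levels are per listed length, which exceeds the longest annotated coding transcript in 6 of the 8 members, up to 5.04 times in *Rarg* (14.9 kb against 2.95 kb). Per annotated length *Rarg* reached 234 in the CvP and passed *Aldh1a1* at 128, and in the Epi *Aldh1a1* and *Aldh1a3* changed places.

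Other cell types differed between the libraries as well, and their part in the values of the members was not tested. In bulk tissue more cells of a type and more RNA per cell cannot be told apart. The 8 immune markers summed to 219 in the CvP against 26.7 in the Epi, led by *Lyz2* (132 and 0.43) and *Cd74* (60.6 and 19.9), with *Cd3e* at 0 in the Epi. The 9 fibroblast markers summed to 50.1 and 134, and the direction of this sum came from *Dcn*, at 26.1 and 128. Of the 4 with at least 1 RPKM in either library, the other 3 were higher in the CvP. They were *Fbln1* at 18.5 and 2.79, *Vim* at 3.99 and 2.79, and *Pdgfra* at 1.30 and 0.07. *Lum* was at 0 in the CvP. The 8 salivary gland markers with a row summed to 55.2 and 409, led by *Lipf* (1.96 and 313) and *Amy1* (0.85 and 80.5). On that list *Cldn10* (31.4 and 5.62) and *Pigr* (12.0 and 0.54) were called higher in the CvP and 2 genes higher in the Epi, and *Aqp5* was at 6.09 and 0.69. The 7 skeletal muscle markers summed to 3.61 and 49.3, led by *Acta1* and *Ckm*. Nerve and glia markers summed to 17.1 and 11.3, led by *Mbp* and *Ngfr*, and endothelial markers to 2.83 and 0.27, led by *Tek* and *Pecam1*. Most of the endothelial sum in the CvP was *Tek* (2.49 and 0.07), while *Pecam1* was at 0.28 and 0.12. *Cdh5* went the other way at 0.02 and 0.06, about 2 and 7 reads. The defining fibroblast gene *Col1a1* was near 0 in both libraries, at 0.06 and 0.18.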

How the data were processed

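The deposited table holds RPKM values of 1 CvP and 1 Epi library. The authors prepared poly(A) RNA with a TruSeq kit, mapped single-end reads of 75 bases with Bowtie 0.12.7 to NCBI37/mm9 and obtained RPKM with ERANGE. The treatment of reads with several matches is not given in the sources used here. A further column, the authors' own CvP/Epi ratio, was not used. Ratios were calculated from the deposited RPKM without a pseudocount. For log2 ratios a pseudocount of 0.1 was added, which understates the change of low genes. Depth was read from the steps of RPKM in the 163 rows of 0.1 kb. In rows of up to 0.5 kb, 96.4% of CvP and 97.7% of Epi values under 20 reads were whole reads within 0.1. Reads were estimated with the listed length or, where shorter, that of the longest GENCODE M1 coding transcript. Ratios were given 95% exact (Clopper-Pearson) intervals and levels exact Poisson intervals. The estimate of depth and the coverage of the ratio intervals were tested on simulated data, and the other steps were not.

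The genes, lists and rules were chosen with earlier results of these data known, and 2 listed genes are not reported here and were left out of the lists. Named are all members, their families and the short retinoid lists, the highest and most different genes of each longer list, the 5 genes nearest to *Adh7* and the 2 highest of each marker list. The KEGG rows, *Gm16559*, *Pkd2l1*, *Kcnq1*, *Cd3e*, *Lum*, *Col1a1*, *Vim*, *Pdgfra*, *Krt5*, *Trp63*, *Cldn10* and *Pigr* were named after their values were seen. So were *Aqp5*, *Cdh5*, *Ncoa1*, *Ncoa2*, *Ncoa3*, *Aldh3a2* and the genes beside the threshold. Alternatives were other minimums, ratios, pseudocounts, scalings and choices of rows. Python 3.11.15, numpy 2.4.6, pandas 2.3.3, scipy 1.17.1 and matplotlib 3.10.9 were used.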

Additional observations from a re-analysis of the deposited data

How the results depend on the processing

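No paired analysis was possible because only 1 pool of mice was sequenced for either tissue and no test was run. The members called higher in the CvP were 3, and 2 or 3 under all 11 alternatives. *Adh7* was lost with a ratio above 5 and after division by the median ratio. No member was called higher in the Epi under any of the 11. The other retinoid, Adh and Aldh genes called higher in the CvP were 2, but 8 at a minimum RPKM of 1, 4 at a minimum of 3, 1 at a minimum of 20, 5 with a ratio above 2, 1 with a ratio above 5 and 4 after rescaling to a common sum. Those called higher in the Epi were 0, but 2, *Fabp5* and *Rarres1*, with a ratio above 2 or after division by the median ratio. These settings change the limits or move the ratios by construction, and rescaling to a common sum did both. It called *Rarb* and *Scarb1*, at 6.03 and 5.34 in the CvP as deposited, as the minimum of 3 did. The 4 after rescaling are therefore not an effect of the ratio alone.

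The ratio of *Adh7* was 3.04, 2.32 divided by the median ratio and 3.67 rescaled to a common sum. Of all rows called, 79.7% were higher in the CvP, 63.6% (342 rows against 196) after division by the median ratio and 92.4% (1382 against 114) rescaled to a common sum. The rescaling multiplied ratios by 1.206, but it also moved levels relative to the minimum RPKM. As deposited, a ratio above 2 called 862 rows higher in the CvP and a minimum of 3 called 1120. The 92.4% is therefore not an effect of the ratio alone. The members with a ratio above 1 were 5 as deposited, 3 divided by the median ratio and 7 rescaled. The median log2 ratio of the members, whose alternatives were added after seeing the data like the order per annotated length, was 0.03, -0.36 and 0.31 in the same order. Depth limits the Epi values of *Aldh1a1* and *Aldh1a3*, at about 17 and 32 reads by the shorter, annotated length.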
